A study of Mus musculus with 18 samples.

Results

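The interferon-induced GTPases described here are 10 mouse genes of 2 related families, the guanylate-binding proteins Gbp2, Gbp2b, Gbp3, Gbp5, Gbp6 and Gbp7 and the immunity-related GTPases Iigp1, Irgm1, Irgm2 and Igtp. A member was measured where the value table holds a row, a probe set, that the platform's table pairs with that gene and no other. Gbp2b, Gbp3, Gbp5, Gbp7, Iigp1 and Irgm1 each had 1 such probe set, so 6 of the 10 members were measured, of 19938 genes with a probe set of their own. Gbp2, Gbp6, Irgm2 and Igtp share their probe sets with other genes and were not analysed here. The Gbp genes of chromosome 3 are close paralogs, so a probe set paired with 1 of them may also read another, which was not tested. Epidermis of the glabrous hindpaw was taken from CFA mutant, CFA control, naive mutant and naive control mice, and dorsal root ganglia (DRG, lumbar 1 to 6) from naive mutant and naive control mice, with 3 arrays in each of these 6 groups. Mutant mice were K14Cre-Trpa1 fl/fl and control mice, which the labels call wild type, were K14Cre-Trpa1 +/+, so both carried Cre recombinase driven by the promoter of keratin 14, a keratinocyte gene. The floxed exons encode the pore of the TRPA1 channel. All were adult males of a mixed C57BL/6, CBA and Swiss Webster background, and the colonies of the genotypes were kept separately over generations, so genotype and colony cannot be told apart. The methods state that the 3 samples of each group were biological replicates. Whether 1 mouse gave both tissues is not stated. CFA is complete Freund's adjuvant, killed mycobacteria in oil, which inflames the paw. CFA epidermis was taken 2 days after the injection and is compared with naive epidermis, as no array came from vehicle-injected mice.

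Interferon-γ signals through Jak kinases to the gamma-activated site (GAS) in promoters. Type I interferons signal through Jak kinases to a complex that holds Stat2 and Irf9 and binds the interferon-stimulated response element (ISRE), and Irf1 binds elements of the same kind. Both interferon types raise Gbp and Irg transcripts in many mouse cells, and the proteins defend the cell from within. Effector members such as Iigp1 and the Gbp proteins gather on the vacuoles of intracellular parasites and bacteria and help to break them, while the Irgm group, Irgm1, Irgm2 and Igtp, stays on the cell's own membranes and holds the effectors inactive there. Gbp5, Gbp7, Gbp3, Gbp2b and Gbp2 follow one another in this order on chromosome 3 of assembly GRCm38.p6, with no other protein-coding gene between them, and Igtp and Irgm2 are neighbours on chromosome 11.

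Promoter windows from RefSeq (GRCm38.p6, 250 bases before to 50 bases after a transcription start) were taken for 8 of the 10 members and searched for both elements, since 4 of these 8, Gbp7, Gbp3, Gbp2b and Irgm1, rose after CFA. No window of Iigp1, which also rose, or of Gbp6 was searched, so the counts below do not cover them. Gbp5 was not called, and Gbp2, Igtp and Irgm2 have no values here. The ISRE core was searched as GAAANNGAAA and the GAS core as TTCNNNGAA on both strands, N being any base. All 8 members searched held the ISRE core, against 3.44% of 32851 windows in the table, and 4 members, Gbp5, Gbp7, Igtp and Irgm2, held the GAS core, against 8.3% of windows. A match describes the letters and is not a binding site. Windows of Gbp7, Gbp3, Gbp2b, Irgm1 and Gbp5 are shown, the members with values and a searched window, with the cores in capitals. They lie at chr3:142530086-142530385 for Gbp7, chr3:142559794-142560093 for Gbp3, chr3:142594597-142594896 for Gbp2b and chr3:142496684-142496983 for Gbp5, all on the plus strand, and at chr11:48871371-48871670 on the minus strand for Irgm1. Each is written 5′ to 3′ along its gene.
Gbp7: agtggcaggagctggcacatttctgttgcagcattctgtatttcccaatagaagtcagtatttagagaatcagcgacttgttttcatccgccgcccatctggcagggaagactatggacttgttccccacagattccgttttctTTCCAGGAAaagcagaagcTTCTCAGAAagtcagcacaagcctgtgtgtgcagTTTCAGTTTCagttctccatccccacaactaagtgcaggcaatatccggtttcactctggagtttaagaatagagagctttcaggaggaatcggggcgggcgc
Gbp3: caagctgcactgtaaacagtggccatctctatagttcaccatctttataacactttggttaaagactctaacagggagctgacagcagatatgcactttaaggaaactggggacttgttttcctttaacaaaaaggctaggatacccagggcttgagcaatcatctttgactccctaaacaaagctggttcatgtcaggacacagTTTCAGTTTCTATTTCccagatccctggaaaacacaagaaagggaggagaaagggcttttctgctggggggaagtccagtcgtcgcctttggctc
Gbp2b: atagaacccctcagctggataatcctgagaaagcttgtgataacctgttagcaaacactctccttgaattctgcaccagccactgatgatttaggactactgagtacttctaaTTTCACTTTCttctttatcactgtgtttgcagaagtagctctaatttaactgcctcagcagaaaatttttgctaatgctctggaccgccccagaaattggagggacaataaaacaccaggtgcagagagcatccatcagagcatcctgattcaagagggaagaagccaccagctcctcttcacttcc
Irgm1: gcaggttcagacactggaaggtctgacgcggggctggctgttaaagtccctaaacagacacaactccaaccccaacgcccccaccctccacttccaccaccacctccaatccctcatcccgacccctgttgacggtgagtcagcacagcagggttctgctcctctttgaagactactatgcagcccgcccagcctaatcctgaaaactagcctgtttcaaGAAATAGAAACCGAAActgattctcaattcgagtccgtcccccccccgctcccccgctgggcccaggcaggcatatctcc
Gbp5: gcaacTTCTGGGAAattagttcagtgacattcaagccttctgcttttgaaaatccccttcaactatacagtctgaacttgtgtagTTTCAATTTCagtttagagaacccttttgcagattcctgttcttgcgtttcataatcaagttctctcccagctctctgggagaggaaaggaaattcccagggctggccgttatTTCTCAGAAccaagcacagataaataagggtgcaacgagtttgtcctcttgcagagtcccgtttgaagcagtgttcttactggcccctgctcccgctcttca
The 4 Gbp windows carry the ISRE core on the opposite strand, so it appears here as its reverse complement, and Irgm1 carries it as spelled. It lies closest to the start in Irgm1, where 2 overlapping matches run from position -30 to -15, and in Gbp3, where 2 overlapping matches run from -45 to -30. The match lies at -53 to -44 in Gbp7, at -137 to -128 in Gbp2b and at -165 to -156 in Gbp5. The GAS cores lie at -106 to -98 and -87 to -79 in Gbp7 and at -245 to -237 and -52 to -44 in Gbp5. A second window of Gbp3, from a later start, held neither core.

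Expression is given as log2 signal, 1 value for each probe set and array, from the RMA method of correcting, quantile-normalising and summarising the probes. Array medians lay at 5.37 to 5.48 in epidermis and 6.51 to 6.58 in DRG, and replicate arrays correlated with r of 0.986 to 0.993 across probe sets. The tissues were brought to different distributions, so levels are compared only within a tissue, and levels of different genes are not compared because their probes differ. Background was taken on each array from 1218 probe sets of olfactory-type receptor genes (odorant, vomeronasal, trace-amine), at their 95th percentile, and lay at 4.58 to 4.79 in epidermis and 5.77 to 5.92 in DRG. Trpa1, the floxed gene, lay below background on all 12 epidermal arrays, so it does not check the labels there. In DRG its probe set lay at 8.44 to 8.84 in mutant and 8.89 to 9.08 in control. The paper reports neither an excision product nor a signal from its Cre reporter in DRG. These DRG values thus do not check the labels either, and no test of their difference is given. Keratinocyte markers were high in the epidermis, with Krt14 at 12.3 to 12.8 on its 12 arrays, and the DRG held neuronal transcripts, with Avil at 10.9 to 11.1 on its 6 arrays. A probe set was called at an adjusted p under 0.05 by limma's moderated test, with Benjamini-Hochberg adjustment over 23410 probe sets.

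In inflamed epidermis 5 of the 6 measured members were higher than in naive epidermis, in mutant and in control mice alike, and each of the 5 fold changes was smaller in the mutant. That difference was tested on its own and is given further on. Gbp7, a guanylate-binding protein of macrophage defence, and Irgm1, the regulator that keeps effector GTPases off the cell's own membranes, were above background in all groups. Gbp2b, Gbp3 and the effector Iigp1 lay below background on all naive arrays and above it on all CFA control arrays. Gbp5, which in macrophages promotes inflammasome activity, lay below background on all 12 epidermal arrays and was not called. The share of all probe sets called higher was 12.9% in mutant and 11.5% in control epidermis, and the share called lower was 13.1% and 14.8%, against 5 of 6 members higher and 0 lower in each genotype.

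**Figure D1:**
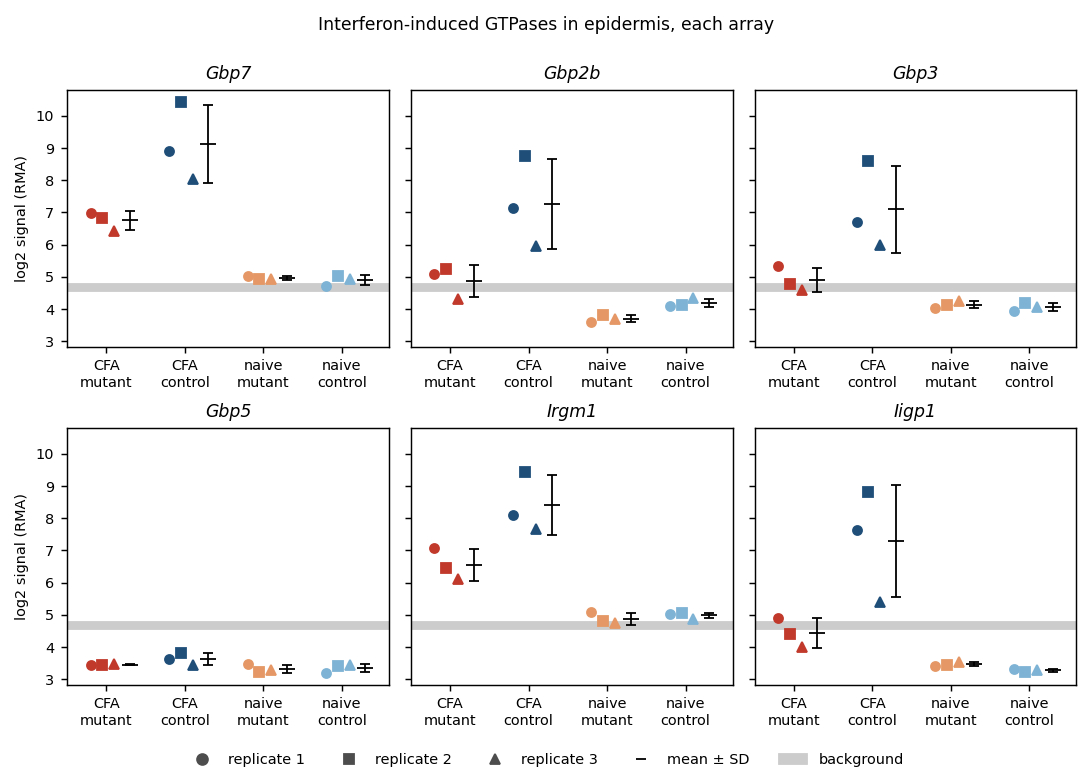
Log2 signal of the 6 measured members on each of the 12 epidermis arrays, by group, with the mean and SD of 3 arrays beside the points and the range of background shaded. Each member has its highest mean in CFA control epidermis, and its CFA mutant mean lies between this group's and the naive means. Gbp5 lies below background in every group, and its CFA groups overlap.

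Gbp7 had log2 signals of 6.99, 6.84 and 6.43 in CFA mutant epidermis and 8.90, 10.43 and 8.02 in CFA control epidermis (replicates 1 to 3 here and below), against 5.03, 4.92 and 4.94 in naive mutant and 4.73, 5.04 and 4.95 in naive control epidermis. The CFA arrays of each genotype lay above its naive arrays without overlap, and all 12 arrays exceeded background. The rise was 3.45-fold in mutant epidermis (1.79 on the log2 scale, standard error 0.13, adjusted p = 4.67e-05) and 18.6-fold in control epidermis (4.22, standard error 0.48, adjusted p = 0.000222).

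Irgm1 had log2 signals of 7.08, 6.46 and 6.12 in CFA mutant epidermis and 8.11, 9.45 and 7.67 in CFA control epidermis, against 5.10, 4.80 and 4.75 in naive mutant and 5.02, 5.04 and 4.89 in naive control epidermis. All 12 arrays again exceeded background and the CFA arrays stood clear of the naive ones. Irgm1 rose 3.17-fold in mutant epidermis (1.66 on the log2 scale, standard error 0.22, adjusted p = 0.000939) and 10.7-fold in control epidermis (3.43, standard error 0.36, adjusted p = 0.00015).

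Gbp2b, a guanylate-binding protein once named Gbp1 in the mouse, had 5.08, 5.25 and 4.32 in CFA mutant epidermis and 7.13, 8.74 and 5.96 in CFA control epidermis, against 3.59, 3.82 and 3.70 in naive mutant and 4.10, 4.12 and 4.34 in naive control epidermis. It exceeded background on 2 of 3 CFA mutant arrays, on all CFA control arrays and on 0 naive arrays. Where a group lay below background on all its arrays, only a lower bound on the fold is given, taken against that background. Gbp2b was at least 1.19-fold higher after CFA in mutant epidermis (log2 fold change 1.18, adjusted p = 0.00483) and at least 6.4-fold higher in control epidermis (3.09, adjusted p = 0.00294).

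Gbp3 had 5.32, 4.78 and 4.60 in CFA mutant epidermis and 6.71, 8.61 and 5.99 in CFA control epidermis, against 4.04, 4.13 and 4.26 in naive mutant and 3.95, 4.18 and 4.08 in naive control epidermis. It too exceeded background on 2 of 3 CFA mutant arrays, on all CFA control arrays and on 0 naive arrays. Gbp3 was at least 1.21-fold higher after CFA in mutant (log2 fold change 0.76, adjusted p = 0.012) and at least 5.69-fold higher in control epidermis (3.04, adjusted p = 0.00265).

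Iigp1, the effector GTPase first known from vacuoles of intracellular parasites, had 4.91, 4.41 and 4.0 in CFA mutant epidermis and 7.64, 8.82 and 5.40 in CFA control epidermis, against 3.43, 3.43 and 3.54 in naive mutant and 3.32, 3.23 and 3.29 in naive control epidermis. Only 1 of 3 CFA mutant arrays exceeded background, so the rise there (0.97 on the log2 scale, adjusted p = 0.00763) is given without a fold. Control epidermis after CFA had at least 6.46-fold more Iigp1 signal (4.01, adjusted p = 0.00218). Gbp5 lay at 3.45 to 3.47 in CFA mutant, 3.44 to 3.81 in CFA control, 3.23 to 3.46 in naive mutant and 3.20 to 3.44 in naive control epidermis, with adjusted p = 0.283 in mutant and 0.11 in control.

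**Figure D2:**
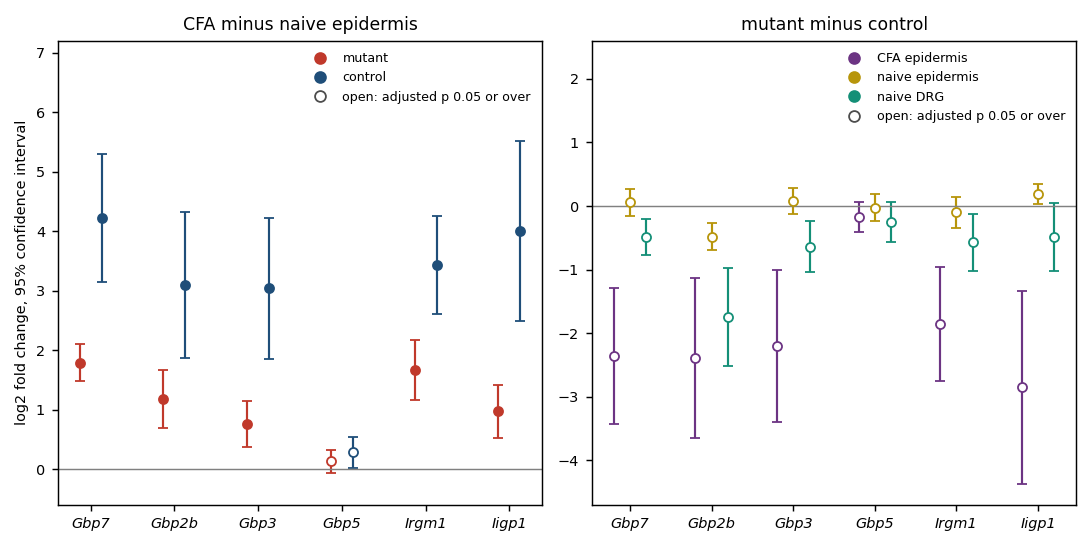
Log2 fold changes of the 6 measured members with 95% confidence intervals from limma, CFA minus naive in mutant and control epidermis (left) and mutant minus control in CFA epidermis, naive epidermis and DRG (right); filled points passed the adjusted threshold. On the left 5 members are filled in each genotype, and on the right all points are open although most CFA epidermis intervals lie below 0.

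The median log2 fold change of the 6 members was 1.07 in mutant and 3.26 in control epidermis, where the median over all probe sets was 0.04 and 0.03. The calls were lost for Gbp2b, Gbp3 and Iigp1 with the methods' unmoderated test in both genotypes, which left Gbp7 and Irgm1. The same 3 were lost in mutant epidermis when all 4 epidermal groups were fitted together (adjusted p = 0.0917, 0.251 and 0.248). Leaving out any 1 array kept all 5 calls in both genotypes, and without CFA control replicate 3 Gbp5 was called as well in control epidermis (0.37 on the log2 scale, adjusted p = 0.0469).

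Mutant and control mice were next compared within inflamed epidermis. On the values given above, all 3 CFA mutant arrays lay below all 3 CFA control arrays for 5 of 6 members, a pattern that 5.6% of all probe sets showed in this direction. The exception was Gbp5. None of the 6 members was called by limma, where 0.179% of all probe sets were called in either direction, while 5 had an unadjusted p under 0.05, as did 8.96% of all probe sets, and 0 were called by the unmoderated test. These comparisons share the CFA control arrays with the CFA response of control epidermis and are not independent of it.

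Iigp1 averaged 4.44 ± 0.46 in CFA mutant and 7.29 ± 1.74 in CFA control epidermis (SD, n = 3 each), with only 1 CFA mutant array above background, so the difference is given without a fold (-2.85 on the log2 scale, 95% confidence interval -4.37 to -1.33, adjusted p = 0.193). Gbp2b averaged 4.88 ± 0.50 in CFA mutant and 7.27 ± 1.40 in CFA control epidermis and was 5.24-fold lower (-2.39, interval -3.65 to -1.13, adjusted p = 0.19). Gbp7 averaged 6.75 ± 0.29 in CFA mutant and 9.12 ± 1.22 in CFA control epidermis and was 5.16-fold lower (-2.37, interval -3.44 to -1.30, adjusted p = 0.114). Each of these intervals excluded 0 and spanned more than 2 log2 units. Gbp3 was 4.59-fold lower (-2.20, adjusted p = 0.197), with means of 4.90 ± 0.38 in CFA mutant and 7.10 ± 1.35 in CFA control epidermis. In CFA mutant epidermis Gbp2b and Gbp3 exceeded background on 2 of 3 arrays and averaged only 0.14 and 0.16 above it. Their folds thus rest on values near background. Irgm1 was 3.63-fold lower (-1.86, adjusted p = 0.147), with means of 6.55 ± 0.49 in CFA mutant and 8.41 ± 0.92 in CFA control epidermis. Gbp5 differed by -0.17 (adjusted p = 0.726).

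The arrays of a group differed most in CFA control epidermis. Over the 5 members other than Gbp5 the SD was 0.29 to 0.50 log2 units in CFA mutant and 0.92 to 1.74 in CFA control epidermis. Among CFA control arrays replicate 2 was highest and replicate 3 lowest for 6 of 6 members. Among CFA mutant arrays replicate 3 was lowest for 5 members and replicate 1 highest for 4. The members thus shared the order of the CFA control arrays. Without CFA control replicate 3, 3 members were called lower in the mutant, Iigp1 (log2 fold change -3.79, adjusted p = 0.00417), Gbp2b (-3.05, adjusted p = 0.0292) and Gbp7 (-2.91, adjusted p = 0.0187). Over all probe sets 21 were then called higher and 83 lower, against 19 and 23 with all arrays. Without CFA control replicate 2, Gbp7 alone was called (-1.71, adjusted p = 0.0482), and without any other single CFA array 0 were called. With all 4 epidermal groups in a common fit, which lets the tight naive groups set the spread too, 5 members were called, with adjusted p-values of 0.0184 for Gbp7 to 0.0401 for Gbp3. That fit called 246 of all 23410 probe sets, against 42 with the CFA groups fitted alone.

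**Figure D3:**
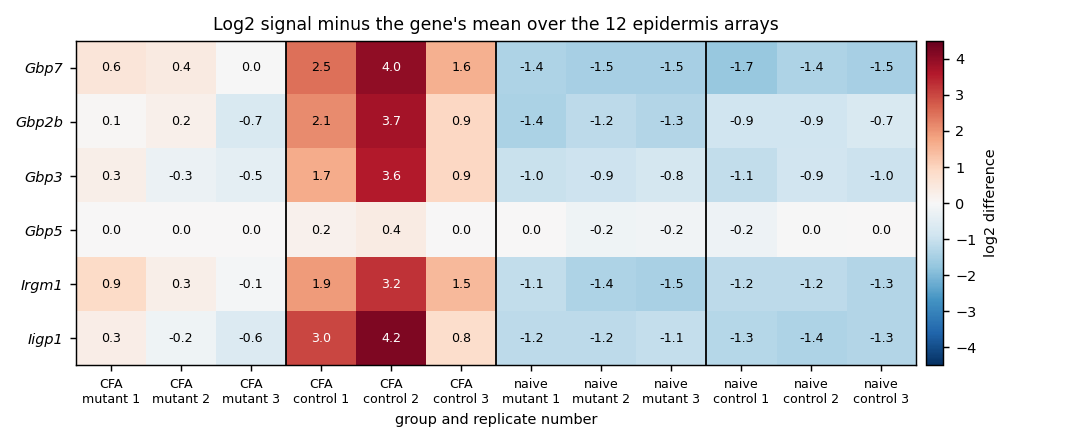
Log2 signal of each measured member on each of the 12 epidermis arrays, minus the gene's own mean over these arrays, with groups set apart by black lines. In CFA control epidermis the 5 members other than Gbp5 are highest on replicate 2 and lowest on replicate 3, and even replicate 3 lies above every CFA mutant array for each of them.

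The difference between the genotypes in the CFA response itself was tested as an interaction over the 12 epidermal arrays. The response of the mutant was smaller for all 6 members by the estimates, which were -3.04 for Iigp1, -2.43 for Gbp7, -2.28 for Gbp3, -1.91 for Gbp2b, -1.76 for Irgm1 and -0.15 for Gbp5 on the log2 scale. Adjusted p-values from limma ran from 0.245 for Gbp7 to 0.83 for Gbp5, and 0 members were called where 0.0256% of all probe sets were. At an unadjusted p under 0.05 there were 5 members, all but Gbp5, and 8.26% of all probe sets, and the unmoderated test called 0. Without CFA control replicate 3 the difference was called for Iigp1 (-3.98, adjusted p = 0.00083) and Gbp7 (-2.98, adjusted p = 0.0136). Over all probe sets 16 were then called higher and 71 lower, against 3 and 3 with all arrays.

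Naive epidermis was compared between the genotypes in the same way. No member was called, where 0.0299% of all probe sets were called, and 2 had an unadjusted p under 0.05, as did 8.94% of all probe sets. The 2 members were Gbp2b, at 3.59 to 3.82 in mutant and 4.10 to 4.34 in control epidermis (difference -0.48, adjusted p = 0.264), and Iigp1, at 3.43 to 3.54 in mutant and 3.23 to 3.32 in control epidermis (0.19, adjusted p = 0.496). All of these values lie below background, so no fold is given. Gbp2b was the 1 member lower in the mutant without overlap, and 8.93% of all probe sets were. The 2 members above background, Gbp7 and Irgm1, differed by 0.06 (95% confidence interval -0.15 to 0.27) and -0.10 (interval -0.34 to 0.14). The unmoderated test called 0 members.

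The DRG, which hold the cell bodies of sensory neurons with their glia, vessels and macrophages, were compared between naive mutant and naive control mice. The estimate was lower in mutant DRG for all 6 members and largest for Gbp2b. No member was called by limma, where 0.0726% of all probe sets were called, 4 had an unadjusted p under 0.05, as did 7.15% of all probe sets, and 0 were called by the unmoderated test. Gbp2b, Gbp3 and Gbp7 were lower on all 3 mutant arrays than on all 3 control arrays, 3 of 6 members against 6.77% of all probe sets.

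Gbp2b had log2 signals of 5.46, 5.28 and 6.58 in mutant DRG, against 6.99, 7.91 and 7.66 in control DRG. It exceeded background on 1 of 3 mutant arrays, replicate 3, and on all control arrays. The difference, given without a fold (-1.75 on the log2 scale, 95% confidence interval -2.52 to -0.98, adjusted p = 0.16) became a call without mutant replicate 3 (-2.15, adjusted p = 0.0412). Gbp3 had 7.19, 7.19 and 7.51 in mutant DRG, against 7.52, 8.25 and 8.05 in control DRG, a difference of -0.64 (adjusted p = 0.461) in which mutant replicate 3 and control replicate 1 all but touched. Gbp7 had 8.34, 8.41 and 8.46 in mutant DRG, against 8.62, 9.15 and 8.92 in control DRG (-0.49, adjusted p = 0.372).

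Both Irg members overlapped between the groups. Irgm1 had 6.68, 6.65 and 6.88 in mutant DRG, against 6.77, 7.60 and 7.55 in control DRG (-0.57, adjusted p = 0.628), and Iigp1 had 5.89, 5.92 and 6.11 in mutant DRG, against 5.87, 7.0 and 6.53 in control DRG (-0.49, adjusted p = 0.711). Gbp5 lay near background in both groups, at 5.68 to 5.83 in mutant and 5.68 to 6.28 in control DRG (-0.25, adjusted p = 0.725). Control replicate 1 was the lowest control array for 6 of 6 members. Without it Irgm1 (-0.84, adjusted p = 0.0154), Gbp3 (-0.85, adjusted p = 0.0335) and Gbp7 (-0.63, adjusted p = 0.0345) were called lower in mutant DRG. Calls rose over all probe sets in that fit, to 203 of 23410, 140 higher and 63 lower, against 17 with all arrays. Differentiated keratinocyte transcripts were raised on mutant replicate 1 and control replicate 3 (list means 6.64 and 6.15 against 5.47 to 5.75 on the other arrays). Without these 2 arrays 0 members were called, where 2 of 23410 probe sets were. No member was called with these arrays either, so the part of these transcripts in the differences was not tested.

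**Figure D4:**
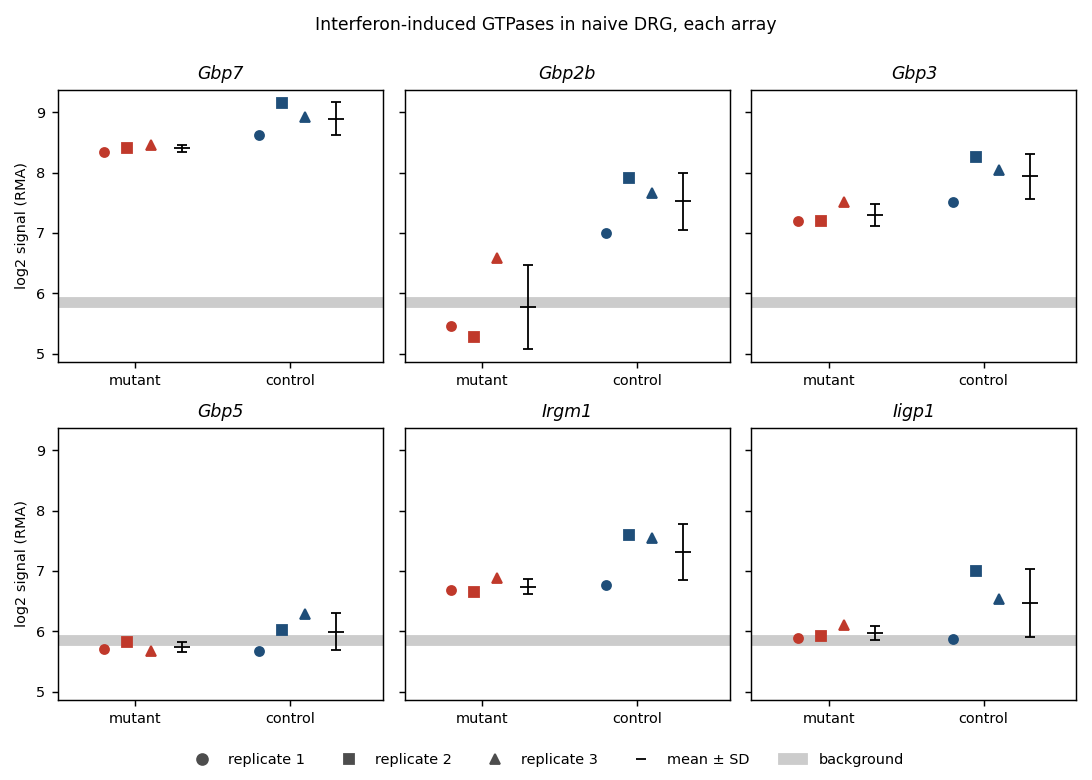
Log2 signal of the 6 measured members on each naive DRG array, mutant left of control, with the mean and SD of 3 arrays beside the points and the range of background shaded. The groups stand apart for Gbp7, Gbp2b and Gbp3, and control replicate 1 is the lowest control array in every panel.

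The genes around the GTPases in the interferon pathway were counted from fixed lists. Ifng, the gene for interferon-γ, is given although its values were seen before it was chosen. It had mean log2 signals of 5.15 in CFA mutant and 5.09 in CFA control epidermis, against 5.09 in naive mutant and 5.03 in naive control epidermis (adjusted p = 0.721 and 0.773 for the CFA response in mutant and control). Ifnb1, for interferon-β, lay below background in all 4 groups. Of 13 ligand and inducing cytokine genes measured, 2 were higher and 1 lower after CFA in mutant epidermis, and 3 were higher and 1 lower in control epidermis. The lower 1 was Il18, for a cytokine that induces interferon-γ, which fell by 3.74 in mutant and by 3.33 in control epidermis on the log2 scale (adjusted p = 2.59e-07 and 2.16e-07).

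Of 6 interferon receptor genes 2 rose in mutant and 3 in control epidermis after CFA, and none fell. Ifngr1, for the ligand-binding chain of the interferon-γ receptor, rose by 1.35 in mutant (adjusted p = 0.00797) and by 1.74 in control epidermis (adjusted p = 7.48e-05). Of 13 genes for Jak kinases, Stat and Irf factors 6 rose in each genotype and none fell. Stat2 rose by 1.11 in mutant and 2.69 in control epidermis (adjusted p = 0.00369 and 0.000501), and Irf1 by 0.88 and 1.94 (adjusted p = 0.00783 and 2.54e-05). Irf7, an amplifier of type I interferon production, rose by 2.64 in control epidermis (adjusted p = 0.00078). Among 7 inhibitors of the signal 0 rose and 1, Pias1, fell in mutant epidermis, and 3 rose and Pias1 fell in control epidermis. Usp18, which dampens the type I receptor, differed from naive by 0.78 in mutant (adjusted p = 0.127) and rose by 3.29 in control epidermis (adjusted p = 0.000145).

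Of 18 type I interferon targets 7 were higher after CFA in mutant epidermis, with a median log2 fold change of 0.43, and 17 in control epidermis, with a median of 2.25. Of 14 interferon-γ targets 10 were higher in mutant (median 0.46) and 9 in control epidermis (median 0.82), and none of either list was lower. These shares stand beside the 12.9% and 11.5% of all probe sets called higher. Oasl2, of the oligoadenylate synthetase family, rose by 2.28 in mutant and 4.24 in control epidermis (adjusted p = 0.000597 and 0.000138). Cxcl9, a chemokine induced by interferon-γ, rose by 2.15 in mutant and 3.83 in control epidermis (adjusted p = 0.000495 and 0.00143). Icam1, an adhesion molecule, rose by 1.47 in mutant and 1.85 in control epidermis (adjusted p = 0.000198 and 1.38e-06).

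The other GTPases of these families were counted in the same way. Of 4 other Gbp genes measured 1 was called in each genotype, Gbp4 in mutant (0.34, adjusted p = 0.0214, below background in both groups) and Gbp9 in control epidermis (0.65, adjusted p = 0.0308). Of 5 other immunity-related or very large inducible GTPases 0 were called in mutant and 3 in control epidermis, and the largest, Gm4951, was at least 1.68-fold higher in control (1.78, adjusted p = 0.0151). Of 13 genes of Atg8 conjugation and the ubiquitin adaptors that guide these GTPases to vacuoles, 1 rose and 6 fell in mutant and 1 rose and 7 fell in control epidermis. Gabarapl2, an Atg8 protein, fell by 1.96 in mutant and by 1.77 in control epidermis (adjusted p = 3.08e-06 and 2.8e-06). Of 10 inflammasome genes 1 in mutant and 2 in control epidermis rose.

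**Figure D5:**
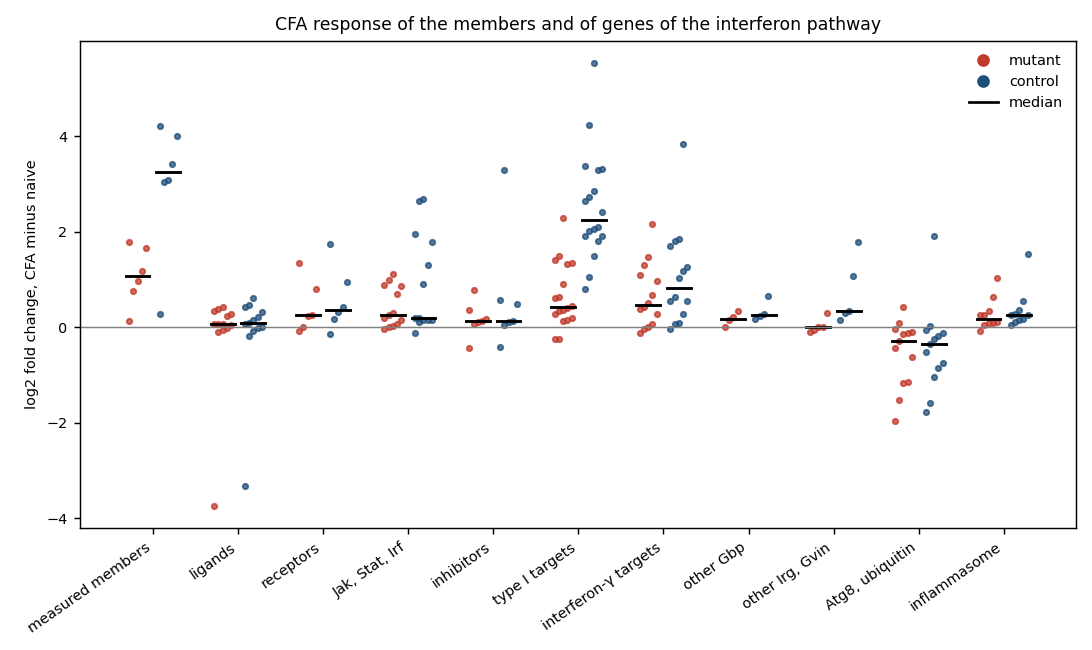
Log2 fold change after CFA of each gene in the 6 measured members and in 10 lists of the interferon pathway, mutant left of control, with the median of each as a bar. The members and the type I targets have the widest gap between the genotypes' medians, and Il18 is the point far below 0 among the ligands.

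Between mutant and control within CFA epidermis, 1 gene of the 10 lists was called. Casp4, the caspase that senses cytosolic lipopolysaccharide and works with Gbp proteins, averaged 6.79 in CFA mutant and 8.33 in CFA control epidermis (-1.53, adjusted p = 0.00703). The median difference was -1.76 for type I targets and -0.21 for interferon-γ targets, against -2.28 for the members and 0.01 for all probe sets. Ifit1, a type I target that binds viral RNA, differed by -3.95 (adjusted p = 0.0573), Usp18 by -2.41 (adjusted p = 0.0846) and Irf7 by -2.23 (adjusted p = 0.083). In DRG 0 genes of the 10 lists were called, and the median difference was -0.46 for other Gbp genes and -0.11 for type I targets, against -0.53 for the members.

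The genes whose pattern over the 12 epidermal arrays was most like the mean of the 6 measured members were found by the root mean square difference between centred log2 signals. The 8 nearest of 19932 genes were Phf11d (0.159), Rnf213 (0.211), Ddx60 (0.217), Samd9l (0.236), Xaf1 (0.276), Parp9 (0.28), Stat2 (0.281) and Rtp4 (0.286), where the median over all genes was 1.32. Phf11d lay at 0.01 in CFA mutant and 2.20 in CFA control, against -1.19 in naive mutant and -1.01 in naive control epidermis, as mean distances from its own mean. The members' mean lay at 0.04 in CFA mutant and 2.01 in CFA control, against -1.05 in naive mutant and -1.0 in naive control epidermis. Among the members Gbp3 was nearest to their mean at 0.189 and Gbp5 farthest at 1.19. These are descriptions, as the genes were ranked on the same arrays.

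Markers of other cells were set beside these results. Langerhans cells are the antigen-presenting cells of the epidermis, and the mean log2 signal of their 6 markers, all above background, was 7.04 to 7.38 in CFA mutant and 7.80 to 7.88 in CFA control epidermis, against 7.15 to 7.37 in naive mutant and 7.38 to 7.46 in naive control epidermis. Of these markers 0 rose after CFA in mutant and 5 in control epidermis. Within CFA epidermis H2-Eb1, a class II gene, lay at 5.87 to 7.05 in mutant and 8.15 to 8.45 in control, and Cd207, which defines the cell, at 5.91 to 6.29 in mutant and 6.62 to 6.93 in control. None of the 6 markers was called between the genotypes there. Epcam overlapped, at 6.39 to 6.99 in mutant and 6.59 to 7.05 in control, and the other markers did not. H2-Eb1 was also lower in the mutant without CFA, at 6.04 to 7.34 in naive mutant and 7.68 to 7.76 in naive control epidermis and at 7.60 to 7.78 in mutant and 8.24 to 8.80 in control DRG, and it weighs on the list means. The antigen-presentation genes Cd74 and H2-Aa ran the other way in naive epidermis, Cd74 at 9.34 to 9.49 in mutant and 9.06 to 9.13 in control, and H2-Aa at 8.97 to 9.14 in mutant and 8.80 to 8.87 in control. The 7 T cell markers averaged 5.27 to 5.34 in CFA mutant and 5.24 to 5.42 in CFA control epidermis, with 3 above background on every CFA array. Of 8 macrophage and monocyte markers 5 or 6 were above background, with means of 5.08 to 5.22 in CFA mutant and 5.16 to 5.37 in CFA control epidermis. Of these 8, 1 was called lower in CFA mutant than in CFA control epidermis, Csf1r, the receptor for macrophage colony-stimulating factor, at 6.85 to 6.92 in CFA mutant and 7.63 to 7.71 in CFA control epidermis. In naive epidermis Csf1r was also lower in the mutant, at 7.01 to 7.05 against 7.14 to 7.28 in control, and was not called. Adgre1 of macrophages, Ncr1 of NK cells and Ly6g of neutrophils were below background on all 12 epidermal arrays. Of 6 NK and cytotoxic markers 1 or 2 exceeded background on each CFA array. Prf1 of that list did so on all 12 epidermal arrays, at 5.13 to 5.37 in CFA mutant and 5.08 to 5.65 in CFA control epidermis. Of 9 neutrophil markers 5 exceeded background on each CFA array. The mean of all 9 was 5.08 to 5.74 in CFA mutant and 4.94 to 5.97 in CFA control epidermis. S100a8, which weighs on these means, ran from 7.87 to 11.1 in CFA mutant and from 8.08 to 11.8 in CFA control epidermis. In DRG the Langerhans list, of which only the class II genes and Cd74 exceeded background, averaged 6.85 to 7.03 in mutant and 7.07 to 7.38 in control, and the macrophage list 6.55 to 6.97 in mutant and 6.77 to 7.02 in control. The part of these cells in the members' differences was not tested, and in whole tissue fewer cells of a type and less RNA per cell cannot be told apart.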

How the data were processed

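The authors hybridised labelled cDNA from epidermis and DRG to Affymetrix Mouse Gene 1.0 ST arrays. They deposited log2 signals after RMA, and the submitters' processing notes also name Partek, both without a version. The deposited table holds 35556 probe sets on 18 arrays, 3 in each of 6 groups, with 0 missing values. Genes came from the platform's table, which pairs 21789 probe sets with 1 gene, 1621 with several and 12146 with none. The 23410 paired with a gene were tested with limma 3.58.1 in R 4.3.3, each comparison fitted on its own groups, and called at an adjusted p under 0.05. The interaction was fitted on the 12 epidermal arrays. Replicate numbers were not used to pair arrays. The procedure was tested on simulated data. Levels at or under the 95th percentile of receptor probe sets counted as background. The number of arrays limits the precision.

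All members with a probe set of their own are named. From each list at most 4 genes are named per comparison, taken by the size of the change among called genes or, where fewer were called, by the smallest p, along with the 8 genes most like the members in epidermis and the defining markers. The members and lists were chosen with earlier results of these data known. Alternatives changed the normalisation, centring, filter on dim probe sets, probe sets tested, variance moderation, test, threshold, replicate block, groups in the fit and arrays. Promoter windows were RefSeq's, read with Python 3.11.15, and figures were drawn with matplotlib 3.10.9.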

Additional observations from a re-analysis of the deposited data

How the results depend on the processing

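Of 525 values of single members under the alternatives, 490 kept their direction and their side of the threshold, 9 lost and 22 gained a call, and 4 changed sign, all of those when 1 array was left out in naive epidermis, where no member was called. These were Gbp7, at -0.027 to 0.13 on the log2 scale, and Gbp5, at -0.10 to 0.023. Requantiling, centring, testing all probe sets, and trend with robust moderation changed no count of members called. The filter on dim probe sets left 4 calls in the CFA response of mutant epidermis, since Iigp1 was then not tested. With the unmoderated test 2 members were called in the CFA response of mutant and 2 in that of control epidermis, and a threshold of 2-fold with the adjusted p left 3 in mutant. With all epidermal groups in one fit 2 were called in the CFA response of mutant epidermis and 5 between mutant and control in CFA epidermis. Under an unadjusted p under 0.05, chosen after seeing the data, 5 were called between genotypes in CFA epidermis, 2 in naive epidermis, 5 for the interaction and 4 in DRG. Leaving out 1 array gave 0 to 3 members in CFA epidermis, 0 to 2 for the interaction and 0 to 3 in DRG. The cause of these changes was not tested.

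The replicate numbers were not taken to pair the arrays, since the correlations of same-numbered arrays were not all above 0.1, and 3 of 15 were best with their own number. The correlations ran from -0.24, for replicate 1 in the CFA response of control epidermis, to 0.23, for replicate 3 between genotypes in CFA epidermis. Whether some same-numbered arrays shared a batch was not tested. With the replicate block 5 members were called between genotypes in CFA epidermis and 1, Gbp2b, in DRG, and the block changed no other count of members called. Over all probe sets the calls moved by more than 1.5 times in places. In CFA epidermis they numbered 42, against 289 with the block, 246 with all groups in one fit, 8 with all probe sets tested, 0 with the unmoderated test and 15 to 146 without 1 array. In naive epidermis they numbered 7, against 0 to 79 over the alternatives, for the interaction 6, against 0 to 87, and in DRG 17, against 1 to 203. For the CFA response they numbered 6096 in mutant and 6150 in control epidermis, against 3859 and 3895 with the unmoderated test. The mean of several probe sets was not run, as each member had 1 of its own.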
